A study of Canis lupus familiaris with 20 samples.

Results

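The 60 dog genes described here were chosen by their level in the cells of OSCA-8, a dog osteosarcoma line, and were then read in the exosomes that this and other lines release. Levels are CPM, a gene's count divided by the total count of its library and scaled to 1000000. Of 24579 genes, 8766 reached 10 CPM in both OSCA-8 cell libraries. Each of these was scored by the lower of its 2 OSCA-8 values, divided by its highest level in the 6 other cell libraries plus 0.5 CPM. The 60 genes with the highest scores were kept and numbered 1 to 60 by score. The cell levels therefore chose the members and are given without a test, whereas the exosome libraries took no part in the choice.

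Osteosarcoma is a malignant tumour of bone-forming cells and a common cancer of large dogs. Exosomes are small vesicles that form inside endosomal compartments and leave the cell when these fuse with its membrane. They carry proteins, lipids and RNA of the cell that made them, which is why their RNA is studied as a trace of a tumour in body fluids. A transcript made by 1 line alone would be a tracer of that line's RNA in such vesicles. ExoQuick, the reagent named in the labels, precipitates vesicles with a polymer, and such precipitation is known to bring down other particles that carry RNA.

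All samples are dog osteosarcoma lines: OSCA-8, OSCA-78, OSCA-32, OS-2 and OS-1. Each line had 2 exosome libraries from culture supernatant except OS-1, which had 4, and each had 2 cell libraries except OSCA-32, which had none. The labels give no treatment, each line is 1 source of cells, and no separate cultures are named. The p-values therefore reflect differences between libraries that may be technical. Totals ran from 7728553 to 13301840 counts in cells and from 259078 to 481487 in exosomes. An exosome library without a count of a gene thus allows up to 6.23 to 11.6 CPM (3 counts, counting error only). The files give Ensembl identifiers without names, and 0 of 24579 matched the RefSeq gene table at hand. What the members encode, their position and sequence and the bone markers of the lines are therefore not described, and 4 identifiers are printed. In bulk RNA, fewer vesicles or cells of a kind and less RNA in each cannot be told apart. Exosome libraries went through precipitation and an exosome RNA kit, so the 2 fractions also differ in handling. The 2 OS-2 exosome libraries stood apart from the rest, and OS-1 replicates 1 and 2 from replicates 3 and 4, in the share of counts that a few genes took, which is given with the sums.

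The members were higher in OSCA-8 cells but not private to them. The score ran from 2.92 to 1.32 with a median of 1.48, and 7 of 60 exceeded 2. In at least 1 other cell library 49 of 60 members reached 10 CPM, and 19 did so in all 6. A count was present in all 6 other cell libraries for 49 members. The highest other library was of OS-1 for 41 members, of OSCA-78 for 15 and of OS-2 for 4. Most of these genes were thus also present in cells of other lines, and they are called here genes highest in OSCA-8 cells.

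The genes at the top and the bottom of the score show how far the gap varied. Member 1, ENSCAFG00000005760, stood at 22.2 and 26.8 CPM in OSCA-8 cells, while OSCA-78 had 3.74 and 5.10 CPM, OS-1 had 7.08 and 0, and OS-2 had 0.624 and 0.865. Member 2 stood at 37.9 and 79.5 CPM in OSCA-8 cells and at 4.40 to 12.9 CPM in the 6 others. Member 3 stood at 12.3 and 14.7 CPM in OSCA-8 cells, at no more than 4.27 CPM elsewhere, and without a count in either OS-2 library. For these 3 genes no other library came near OSCA-8. The last genes inside the limit, members 59 and 60, scored 1.3195 and 1.3183, and the first genes outside scored 1.3175 and 1.3123, so the limit of 60 falls at no break. Member 60 was unlike its neighbours in the ranking, with 94.6 and 128 CPM in OSCA-8 cells, 71.3 in OS-1 replicate A, 1.43 in OS-2 replicate A and no count in the other 4. It was therefore near silent outside OSCA-8 apart from that OS-1 library, whereas member 59 had 24.7 and 37.6 CPM in OSCA-8 cells and 3.57 to 18.2 CPM in all others. The 2 OSCA-8 cell libraries differed by over 2-fold in 5 members, the widest being member 40 with 12.4 and 90.2 CPM.

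By their lower OSCA-8 cell value, 4 members exceeded 1000 CPM, 7 lay between 100 and 1000 CPM and 49 between 10 and 100 CPM. These limits were chosen after the values were seen. The 4 abundant members, numbers 23, 30, 32 and 46, made up 92.4% of the members' summed level in OSCA-8 cells. In OS-1, OSCA-78 and OS-2 cells they made up 93.5%, 93.6% and 83.3%. A sum over all 60 therefore describes mainly these 4 genes in cells, and the 56 others are given apart from them.

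**Figure D1:**
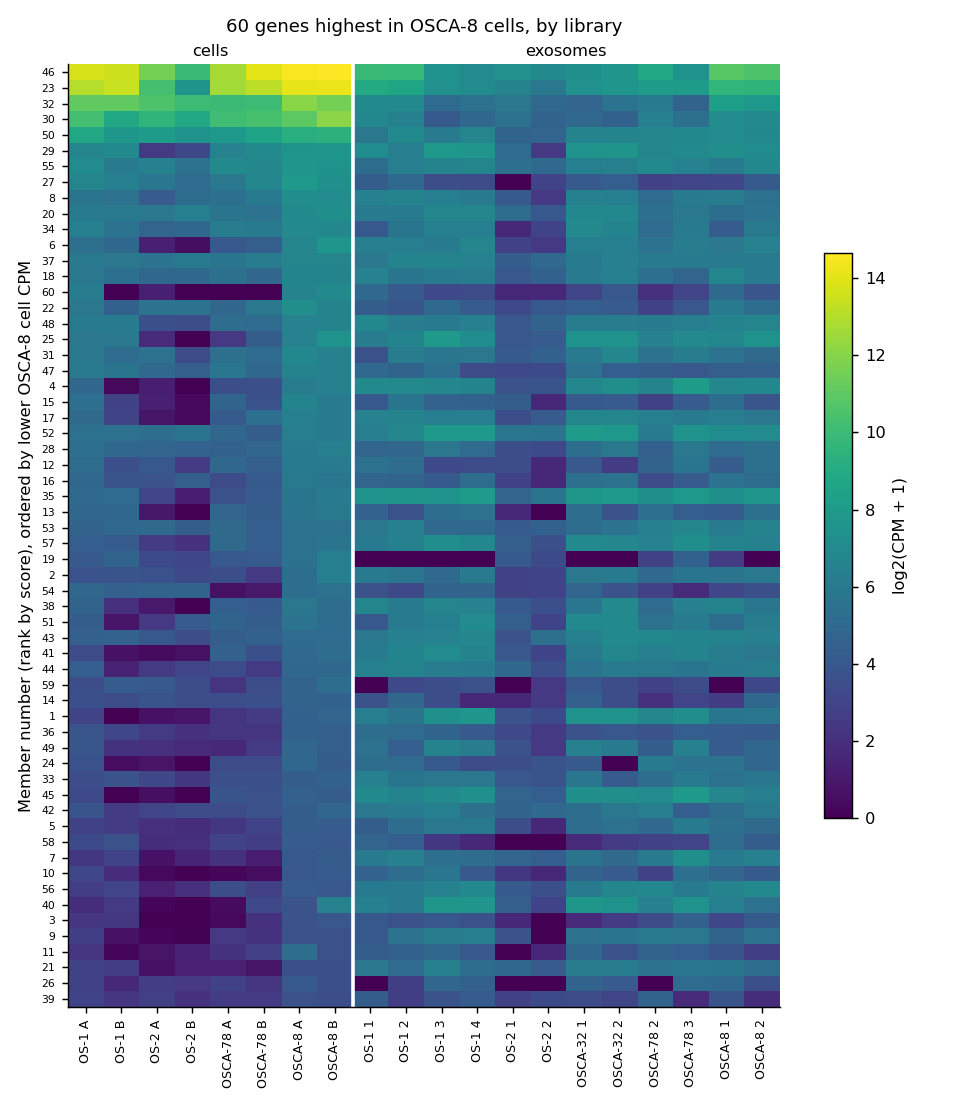
Level of each of the 60 members, as log2(CPM + 1), in 8 cell and 12 exosome libraries (columns, separated by the white line), with members (rows) ordered from the highest to the lowest of their lower OSCA-8 cell CPM. The 4 members over 1000 CPM fill the top rows. Below these rows the OSCA-8 cell columns stand out from the other cells, whereas the OSCA-8 exosome columns resemble those of OS-1, OSCA-32 and OSCA-78, and most members are lowest in OS-2 exosomes (54 of 60 by line means).

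Nearly all members were found in the exosomes of all lines, whatever their cell level. A count was present for 59 members in each OSCA-8 exosome library, for 59 and 58 in OSCA-32, 59 and 60 in OSCA-78, 57 to 59 in the 4 libraries of OS-1 and 55 in each of OS-2. Over the 8766 genes from which members were chosen, 99.2% and 99.0% were detected in OSCA-8 exosomes and 95.9% to 99.0% in the others. So presence of a member in an exosome library did not mark its line. Of the 60, 58 had a count in both OSCA-8 exosome libraries, and 50 had one in all 12 libraries. There were 10 members without a count in OS-2 cell replicate B, and 10 of these 10 had a count in OS-2 exosomes. OS-2 cell replicate A had a count for 59 of the 60 members. The 2 OS-2 exosome libraries detected 97.5% and 95.9% of the 8766 genes, so 10 of 10 is near what genes of any kind gave. In OSCA-32 exosomes 59 members were detected.

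Summed over all 60, the members were higher in OSCA-8 exosomes than in any other exosome library. The sums were 6183 and 5780 CPM in OSCA-8. OSCA-32 had 4300 and 4462 CPM, OSCA-78 had 3650 and 4457, the 4 libraries of OS-1 had 4314 to 4668, and OS-2 had 1169 and 928. Both OSCA-8 libraries thus lay above all 10 others, and both OS-2 libraries below the rest. The OSCA-8 mean of 5982 ± 285 CPM (SD, n = 2) was 1.71 times the mean of the other 4 lines, 3496 CPM. Without the OS-2 line, left out after seeing the data, it was 1.39 times. No p is given, because the members were chosen as a list with earlier results known.

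The excess lay mainly in the 4 abundant members. Their sum was 3108 and 2578 CPM in OSCA-8 exosomes. In OS-1 exosomes it was 1667 and 1534 CPM in replicates 1 and 2 but 403 and 336 in replicates 3 and 4. OSCA-78 had 858 and 512 CPM, OSCA-32 had 388 and 477, and OS-2 had 363 and 236. The OSCA-8 mean was 4.73 times the mean of the other 4 lines in exosomes. In cells, where the rule fixed the direction, it was 2.86 times that of the 3 other lines, as OSCA-32 had no cell library. The 56 other members summed to 3139 ± 89.9 CPM in OSCA-8 exosomes (n = 2), within the range of the other lines. OS-1 had 3515 ± 580 CPM (n = 4), OSCA-32 had 3949 ± 51.8, OSCA-78 had 3368 ± 815 and OS-2 had 749 ± 80.2 (n = 2 each). Their ratio of OSCA-8 to the other lines was 1.08 in exosomes and 0.869 without OS-2, against 2.92 in cells, again without OSCA-32. These exosome ratios depend on the totals used, as given with the dominant genes. In cells OSCA-8 exceeded OS-1 by 2.30 times, OSCA-78 by 2.73 times and OS-2 by 4.44 times, and in exosomes these ratios of CPM were 0.893, 0.932 and 4.19.

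**Figure D2:**
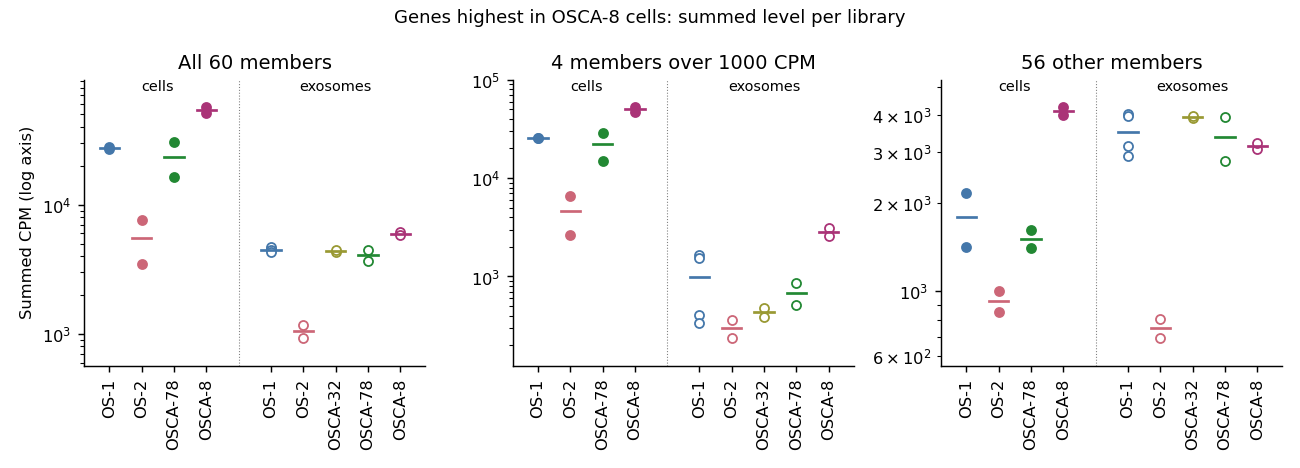
Summed CPM (log axis, whose range differs between panels) of all 60 members, of the 4 members over 1000 CPM in both OSCA-8 cell libraries and of the 56 others, in cells (filled points) and exosomes (open points) of each line. Points are libraries and bars their means. In exosomes OSCA-8 is highest in the first and second panels, while in the last panel its 3075 and 3202 CPM lie among the values of OS-1, OSCA-32 and OSCA-78.

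The library sums move with other features of these libraries. The 7 genes that exceeded 1% of any exosome library, none of them a member, took 27.4% and 18.7% of the counts in OSCA-8 exosomes. They took 55.6% and 60.9% of OS-2 exosomes. In OSCA-78 replicates 2 and 3 they took 20.8% and 1.49%, in OSCA-32 1.90% and 0.807%, and in OS-1 18.4%, 13.7%, 1.59% and 0.750% in order of replicate. The abundant members were thus high in libraries in which this share was also high, OS-2 excepted. With these 7 genes left out of all totals, the 60 members summed to 8515 and 7107 CPM in OSCA-8 exosomes and to 4346 to 5604 CPM in OS-1, OSCA-32 and OSCA-78. In OS-2 they then summed to 2635 and 2375 CPM, still below all others, and the ratio of OSCA-8 to the other lines was 1.90.

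The 56 members below 1000 CPM turned direction only against OS-1, OSCA-32 and OSCA-78 with the same change of totals, tried after seeing the data. They then summed to 4235 and 3937 CPM in OSCA-8 exosomes, 3561 to 4109 in OS-1, 3988 and 4018 in OSCA-32, 3524 and 4004 in OSCA-78 and 1772 and 1816 in OS-2. OSCA-8 was higher on average, but its lower library overlapped the first 3 of these lines. The ratio to all 4 lines was 1.22 where it had been 1.08, and without OS-2 it was 1.06 where it had been 0.869. Against single lines the ratio was 1.07 to OS-1, 1.02 to OSCA-32, 1.09 to OSCA-78 and 2.28 to OS-2. For the 4 abundant members the ratio to the 4 lines changed little, to 4.82.

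The 56 genes of all kinds over 1000 CPM in both OSCA-8 cell libraries, the 4 members among them, also took a larger part of the same libraries. They summed to 32387 and 30550 CPM in OS-2 exosomes, 23769 and 19470 in OSCA-8, and 14598, 13474, 5898 and 5008 in OS-1 in order of replicate. The part of these features in the members' levels was not tested beyond the shares that follow.

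Set against the 56 abundant genes alone, the 4 members were again highest in OSCA-8. They made up 13.1% and 13.2% of these genes in OSCA-8 exosomes. OS-1 had 11.4% in replicates 1 and 2 and 6.84% and 6.71% in replicates 3 and 4. OSCA-78 had 6.43% and 8.74%, OSCA-32 had 6.58% and 9.35%, and OS-2 had 1.12% and 0.772%. In cells they made up 25.9% and 29.9% in OSCA-8, where OSCA-78 had 11.2% and 19.0%, OS-1 had 16.1% and 16.2%, and OS-2 had 5.06% and 2.65%. In exosomes OSCA-8 was highest and OS-2 lowest, and the gap between OSCA-8 and OS-1 replicates 1 and 2 was small. OS-2 was lowest in cells as well. That OSCA-8 was highest in cells follows from the choice of members and is no finding. For the 49 members between 10 and 100 CPM, the same share of genes in that range was 0.582% and 0.578% in OSCA-8 exosomes. OS-2 had 0.133% and 0.146%, OSCA-32 had 0.770% and 0.777%, OSCA-78 had 0.555% and 0.808%, and OS-1 had 0.536% to 0.816%. OSCA-8 lay here inside the range of the other lines, although its cells held 0.700% and 0.775% against at most 0.346% in the others. This range holds 1 of the 7 dominant genes. Without that gene the share was 0.895% and 0.804% in OSCA-8 exosomes, 0.714% to 0.817% in OS-1, OSCA-32 and OSCA-78, and 0.385% and 0.412% in OS-2, so that OSCA-8 replicate 1 was highest and replicate 2 was among the others.

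Gene by gene, OSCA-8 exosomes were compared with the mean of the 4 other lines by edgeR's quasi-likelihood test on 15083 genes. Of the 60 members 55 passed the filter on low counts. A single member rose at a Benjamini-Hochberg adjusted p under 0.05 and 0 fell, where 0.0796% of all tested genes (12 of 15083) rose and 0.0398% (6) fell. This is 1 gene, and it does not describe the members as a group. At an unadjusted p under 0.05, 14 members were higher and 0 lower, against 7.31% and 5.29% of all genes. DESeq2 called 2 members higher (0.0398% of all genes higher, 0.0464% lower), and limma voom 6 (2.86% higher, 0.325% lower), and both called 0 members lower. The 6 that limma called were members 22, 23, 30, 32, 46 and 58. The fitted log2 fold change was above 0 for 44 of the 55, with a median of 0.43, against 53.3% of all tested genes and a median of 0.05. Without the OS-2 line and with total counts as scaling, the members' median turned to -0.08, with -0.35 for all genes. Members that passed the filter through 1 line alone had to differ, so these counts and medians are a description.

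The member that rose was number 23, ENSCAFG00000002069. It stood at 805 and 728 CPM in OSCA-8 exosomes. OS-1 had 494, 408, 169 and 132 CPM, OSCA-78 had 267 and 260, OSCA-32 had 168 and 210, and OS-2 had 91.4 and 57.3. Both OSCA-8 libraries lay above all others, and the 4 OS-1 libraries fell into a higher and a lower pair. The fit gave a log2 fold change of 1.96 with an SE of 0.36 (edgeR, adjusted p = 0.0325). It was also among the most abundant genes of the cells, at 17422 and 18897 CPM in OSCA-8. OSCA-78 cells had 6269 and 9398 CPM, OS-1 cells had 8302 and 11064, and OS-2 cells had 1289 and 191. The call held without any 1 of the 4 OS-1 exosome replicates (edgeR adjusted p = 0.00273, 0.00815, 0.0160 and 0.00666 in order of replicate). Leaving out a library of any other line left that line with 1 library. The call then held without OSCA-78 replicate 2 or 3 (log2 fold change 2.01 or 1.90). The call was lost without any single OSCA-8, OS-2 or OSCA-32 exosome library, with log2 fold changes of 1.77 to 2.11. It was also lost without the whole OS-2 line (0.0866) and with all 20 libraries in one fit (0.293). Over the 23 settings its log2 fold change was 1.63 to 2.11, and 15 settings called it.

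Member 46, ENSCAFG00000017018, had the highest exosome level of all members. It stood at 1856 and 1508 CPM in OSCA-8 exosomes, while OS-1 had 934, 918, 184 and 132 CPM, OSCA-78 had 445 and 186, OSCA-32 had 161 and 198, and OS-2 had 172 and 123. OSCA-8 lay above all others, and OS-1 replicates 1 and 2 were again far above replicates 3 and 4. Its log2 fold change was 2.57 (SE 0.59) and did not pass (edgeR adjusted p = 0.115). Leaving out any 1 of the 4 OS-1 replicates brought it under 0.05, at 0.0405, 0.0451, 0.0305 and 0.00666 in order of replicate. Of 23 settings 6 called it, with log2 fold changes of 2.13 to 2.87 over all of them. Its cells held 23837 and 25809 CPM in OSCA-8 and 956 to 17199 CPM in the other lines.

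Member 32 stood at 312 and 224 CPM in OSCA-8 exosomes, while OS-1 had 127, 124, 33.5 and 43.1 CPM, OSCA-78 had 65.3 and 24.5, OSCA-32 had 26.8 and 46.9, and OS-2 had 56.1 and 30.9. Again no other library reached the OSCA-8 values. Its log2 fold change was 2.36 (SE 0.47) with an edgeR adjusted p of 0.0821, which fell to 0.0252, 0.0282, 0.00870 and 0.0300 without OS-1 replicates 1 to 4, and to 0.0251 without OSCA-78 replicate 2. Of 23 settings 12 called it, among them total count scaling (0.00414), no filter (0.00344), DESeq2 (0.0175) and leaving out the OS-2 line (0.0468). Member 30 stood at 135 and 118 CPM in OSCA-8 exosomes against 112, 84.5, 16.7 and 29.5 in OS-1 and 22.2 to 80.8 in the other lines. Its OSCA-8 values lay just above the highest OS-1 value (log2 fold change 1.47, edgeR adjusted p = 0.258). In cells member 32 had 4177 and 3129 CPM in OSCA-8 and 1008 to 2132 CPM elsewhere, and member 30 had 1978 and 4478 CPM in OSCA-8 and 416 to 1335 CPM elsewhere.

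**Figure D3:**
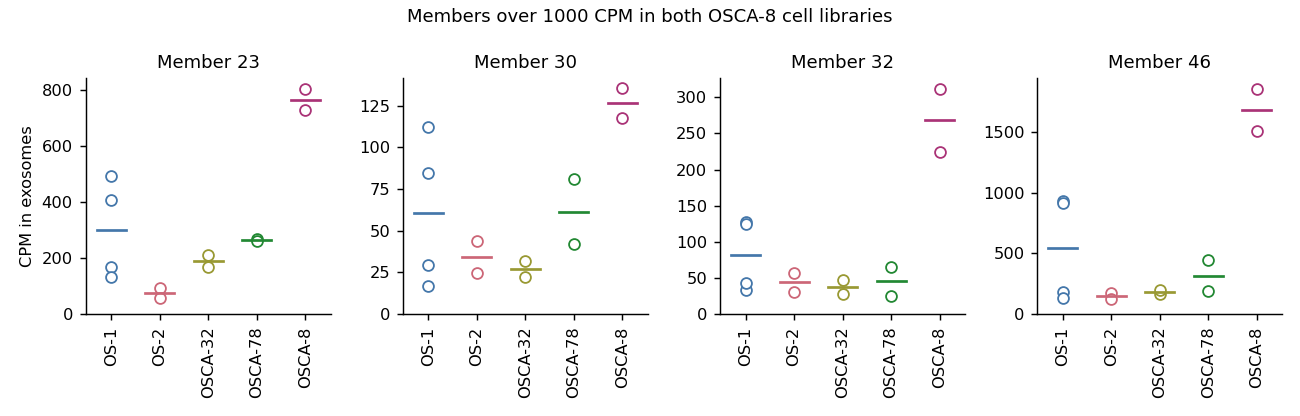
CPM in the 12 exosome libraries of the 4 members that exceeded 1000 CPM in both OSCA-8 cell libraries, by line. Points are libraries, bars their means, and each panel has its own axis from 0. In each panel both OSCA-8 libraries lie above the 10 others, and OS-1 splits into a higher and a lower pair.

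Both OSCA-8 exosome libraries exceeded all 10 others in 5 of the 60 members, where 1.70% of the 24079 genes with an exosome count did so (410 genes). Of the 8766 genes the members were chosen from, 2.46% did so. With the 7 dominant genes left out of the totals, 6 members did so, beside 2.38% of all genes. The count by CPM again lay with abundance. It held for 4 of 4 members over 1000 CPM, beside 26.8% of the 56 genes in that range, for 0 of 7 members between 100 and 1000 CPM, beside 5.18%, and for 1 of 49 below, beside 1.64%. That 1 gene, member 22, was singled out after its values were seen. It stood at 63.9 and 38.3 CPM in OSCA-8 exosomes and at 6.22, 16.4 and 31.4 CPM (lowest, median and highest) in the others. The fitted log2 difference of 1.68 (SE 0.46) did not pass, with an edgeR adjusted p of 0.118. For 0 members did both OSCA-8 libraries lie below all others (0.494% of genes with an exosome count, 0.821% of the 8766). Member 58 had the highest fitted log2 fold change, 3.36, but only 14 and 7 counts in OSCA-8 exosomes, which is 35.8 and 19.2 CPM. OS-1 replicate 1 had 27.0 CPM of it and OS-2 exosomes none, so the groups overlapped (edgeR adjusted p = 0.174).

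Each member was also placed by the line whose exosomes had the highest mean. By CPM, 12 members (20%) were highest in OSCA-8 exosomes, near the 16.1% of the 8766 genes. Of the other members 24 were highest in OSCA-32, 14 in OSCA-78, 10 in OS-1 and 0 in OS-2. For these lines no such share is given here. Without the 7 dominant genes in the totals, 21 members were highest in OSCA-8 (17 of the 56 below 1000 CPM), beside 19.6% of the genes they were chosen from, so this count rests on the totals. Lowest in OS-2 were 54 of the 60, and 69.3% of the 8766 genes. Against single lines, OSCA-8 exosomes were higher than OS-2 in 59 members, but higher than OS-1 in 25, than OSCA-32 in 26 and than OSCA-78 in 28. Without the dominant genes these counts were 54 for OS-2, 35 for OS-1 and 38 each for OSCA-32 and OSCA-78. The median ratio to the other lines was 1.26 where it had been 1.13. Of the genes the members were chosen from, 8763 were compared in the same way. OSCA-8 was then higher than OS-2 in 4902 of them, than OS-1 in 4612, than OSCA-32 in 4871 and than OSCA-78 in 4583. Their median ratio was 0.987. For the counts against single lines by CPM no such share is given here. By CPM, the OSCA-8 level exceeded the mean of the other lines in 41 members (68.3%), beside 46.6% of the 8766 genes. It was at least 2 times that mean in 7 members and at most 0.5 times in 2. For these 2-fold limits no share over all genes is given here, so they do not set the members apart.

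The genes best set apart in cells were not those best set apart in exosomes. Member 1 stood at 51.1 and 52.0 CPM in OSCA-8 exosomes. OS-1 had 77.2, 47.9, 163 and 209 CPM, OSCA-78 had 106 and 142, OSCA-32 had 183 and 175, and OS-2 had 12.5 and 8.82. Its OSCA-8 exosomes were thus below those of OSCA-32 and OSCA-78, although its cell level was 24.5 CPM in OSCA-8 and 2.90 CPM over the other lines. The difference did not pass (log2 fold change -0.61, edgeR adjusted p = 0.531). Member 2 stood at 48.6 and 57.5 CPM in OSCA-8 exosomes, with 6.23, 52.5 and 63.5 CPM as lowest, median and highest of the others, which overlap. Member 3 stood at 7.67 and 16.4 CPM, which is 3 and 6 counts, with 0, 10.3 and 22.1 CPM in the others, and it did not pass the filter. Across the 60 members, the ratio of OSCA-8 to the other lines in exosomes had a Spearman rho of -0.10 with that ratio in cells, and of 0.02 with the score. The points share libraries and differ in depth, so these values describe this list only.

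**Figure D4:**
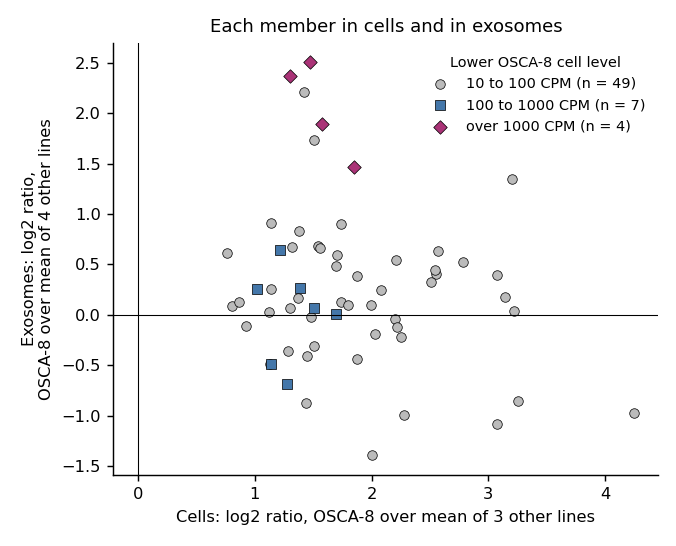
Each of the 60 members by its log2 ratio of OSCA-8 to the mean of the 3 other lines in cells (horizontal axis, above 0 by the choice of members) and of OSCA-8 to the mean of the 4 other lines in exosomes (vertical axis), marked by the lower OSCA-8 cell level. The 4 members over 1000 CPM lie at exosome ratios of 2.77 to 5.68 before taking logs, and the 49 members below 100 CPM spread from 0.381 to 4.62.

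The 7 members between 100 and 1000 CPM also overlapped between lines. They summed to 478 and 536 CPM in OSCA-8 exosomes, with 451 and 527 CPM in OSCA-78, 413 to 665 in OS-1, 685 and 682 in OSCA-32, and 152 and 94.8 in OS-2. The OSCA-8 values lay among those of OS-1 and OSCA-78 and below OSCA-32, and they kept this place below OSCA-32 without the dominant genes (658 and 660 against 687 and 699 CPM). In cells the same 7 summed to 1640 and 1643 CPM in OSCA-8 and to 408 to 974 CPM in the other lines.

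Other members with many exosome counts had similar levels in several lines. Member 35 stood at 156 and 202 CPM in OSCA-8 exosomes, while OS-1 had 174 to 263 CPM, OSCA-78 had 159 and 225, OSCA-32 had 217 and 232, and OS-2 had 27.0 and 48.5. It varied little between lines apart from OS-2, while OSCA-8 cells had 57.6 CPM and the others 17.2 CPM. Member 52 stood at 141 and 131 CPM in OSCA-8 exosomes, within the 48.5 to 266 CPM of the others. Member 25 stood at 105 and 186 CPM, within 14.5 to 230 CPM, and member 29 at 148 and 140 CPM, within 4.41 to 222 CPM. For these 4 genes the edgeR adjusted p was 0.671, 0.991, 0.287 and 0.452. Member 60, near silent in most other cells, stood at 30.7 and 13.7 CPM in OSCA-8 exosomes, 30.9, 16.9, 8.36 and 9.08 in OS-1 and 2.08 to 14.8 in the other lines. Exosomes of OSCA-78 held 3.11 and 7.35 CPM of it, which is 1 and 3 counts, although neither OSCA-78 cell library had a count. Member 40, singled out after its values were seen, had a higher mean CPM in exosomes of 3 other lines than in those of OSCA-8. The difference from the mean of the other 4 lines did not pass (log2 fold change -0.52, edgeR adjusted p = 0.616). Member 40 stood at 79.2 and 43.8 CPM in OSCA-8 exosomes, 219.5 and 175 in OSCA-32, 84.0 and 179 in OSCA-78, and 84.9, 61.9, 217 and 197 in OS-1, which overlapped OSCA-8. Its cells held at most 8.26 CPM in OSCA-78 and 4.66 CPM in OS-1. Member 59 had no count in OSCA-8 exosome replicate 1 and 8.21 CPM, or 3 counts, in replicate 2.

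A few members were scarce in OSCA-8 exosomes. The lowest was member 19, ENSCAFG00000024514, singled out after its values were seen. It stood at 42.4 and 77.99 CPM in OSCA-8 cells and at 7.63 to 25.5 CPM in the other cells. In OSCA-8 exosomes it had 2 counts in replicate 1 and 0 in replicate 2. No count was found in the 4 OS-1 and 2 OSCA-32 exosome libraries, but 8 and 4 counts in OS-2 and 2 and 9 in OSCA-78. OS-2 cells thus had the least of it, at 8.73 and 7.63 CPM, while OS-2 exosomes had more counts than OSCA-8 exosomes. It did not pass the filter on low counts, and nor did members 3, 27, 39 and 59.

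Within OSCA-8, exosomes and cells were set side by side without a test, because the rule used the cell values. The median ratio of exosome to cell CPM was 0.889 over the 60 members and 0.712 over the 8766 genes. It was 0.0550 for the 4 abundant members, 0.334 for the 7 between 100 and 1000 CPM and 1.08 for the 49 below. Over all genes in these ranges it was 0.146, 0.317 and 0.863. So the gene levels, which spanned 10.9 to 24823 CPM in OSCA-8 cells, spanned 2.56 to 1682 CPM in its exosomes. Of the 49 members below 100 CPM, 26 had a higher CPM in exosomes than in cells, up to 6.55 times in member 56. Of the other 11 members 0 did. Among all genes they were chosen from, 42.6% did so between 10 and 100 CPM. Between 100 and 1000 CPM 4.14% did, and over 1000 CPM 0%. These ranges were cut on the OSCA-8 cell level, which also divides the exosome level in the ratio. A fall of the ratio from the low to the high range is therefore partly built in. Across members, the OSCA-8 exosome level had a Spearman rho of 0.46 with the OSCA-8 cell level and of 0.86 with the mean exosome level of the other lines. Without the 4 abundant members these were 0.34 and 0.89 (n = 56). The values come from the same kind of library and share gene length, and are given as a description.

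Sets made by the same rule for the other lines differed much in how far they were set apart. The lowest score inside the limit was 1.32 for OSCA-8, 1.72 for OSCA-78, 6.15 for OS-2 and 1.11 for OS-1, so that OS-2 alone had 60 genes over a score of 2. The OSCA-8 set shared 0 genes with each of them. The ratio of own to other exosomes in summed CPM was 1.71 for the OSCA-8 set, 1.56 for OS-2, 1.55 for OSCA-78 and 1.20 for OS-1. The median ratio per gene was 1.13 for OSCA-8, 0.510 for OS-2, 1.59 for OSCA-78 and 1.19 for OS-1. Own exosomes were highest for 12 of 60 genes of OSCA-8, 4 of OS-2, 32 of OSCA-78 and 10 of OS-1. The OSCA-8 set thus had the highest summed ratio and, like the OS-2 set, a much lower one for its typical gene. These differences between sets were not tested. All these ratios are of CPM, and the 7 dominant genes took 55.6% and 60.9% of the counts in OS-2 exosomes. The CPM of other genes is lowered there, so the ratios depend on the totals. For the OS-1, OS-2 and OSCA-78 sets, ratios without the 7 genes are not given here. Of the 8766 genes 16.1% were highest in OSCA-8 exosomes, and such shares are not given for the other sets.

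**Figure D5:**
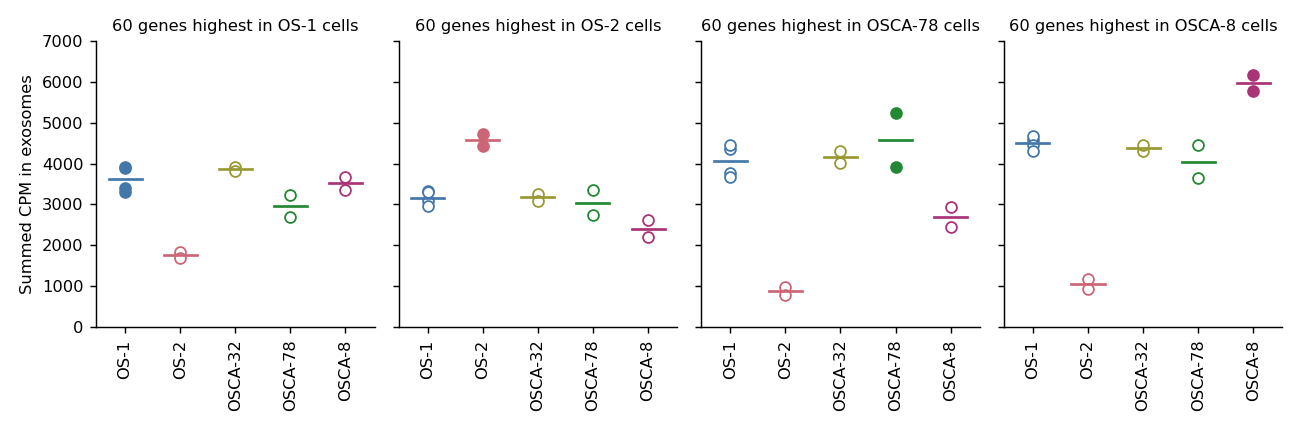
Summed CPM in the 12 exosome libraries of the 60 genes highest by the same rule in cells of each line with cell libraries (panels), with the exosomes of the set's own line as filled points and bars as line means. The OSCA-8 set reads 5780 and 6183 CPM in its own exosomes. Own exosomes also have the highest mean in the OS-2 and OSCA-78 panels, and in the OS-1 panel OSCA-32 has the highest mean.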

How the data were processed

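RNA-seq of 8 cell and 12 exosome libraries was deposited by the authors as 1 table of whole-number read counts per Ensembl gene, not normalized. Per the labels, exosomes were enriched with ExoQuick, RNA was prepared with the SeraMir kit and libraries with SMARTer Stranded Pico reagents, version v2. Per the submitters' processing notes, FastQC 0.11.5, Trimmomatic 0.33.0 and kallisto 0.43.0 were used, with no role given. The deposited counts carry the name subread, whereas the processing notes name kallisto. Which counter was run, its strand setting and how it treated shared reads is not given in the sources used here. Values of overlapping or near-identical genes are therefore uncertain. There was 1 column that matched no sample label and was not used.

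CPM is the count times 1000000 over the library total. Exosomes were tested with edgeR 4.0.16 (R 4.3.3) on 12 libraries, with TMM scaling, filterByExpr at a minimum count of 10, robust quasi-likelihood dispersions, a coefficient per line and the contrast of OSCA-8 with the mean of the other 4. SE is the fold change divided by the root of F. P-values were adjusted over all 15083 genes. The script was tested on simulated data with 200 genes changed. It recovered 7% of genes changed 2-fold and 60% of those changed 4-fold. Among raised genes alone it recovered 13% and 91%, so lowered genes were recovered less often. Alternatives were other scalings, no filter, DESeq2 1.42.0, limma 3.58.1, the replicate block, leaving out libraries and other choices of members. No replicate pair agreed within sampling noise (chi-square per degree of freedom at least 1.79).

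Identifiers matched no gene names, so the lists of vesicle and bone genes could not be used. The members and lists were chosen with earlier results of these data known. Named are members past the test, the 8 with most counts in OSCA-8 exosomes, any without a count there (0 members), the 4 highest in other exosomes, the first 3 by score and those at the limit of 60. Others were singled out after their values were seen.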

Additional observations from a re-analysis of the deposited data

Results flagged for a closer look

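In OS-1 exosomes, the one group of 4 libraries, member 35 had 263 CPM in replicate 4 and 174, 189 and 186 CPM in replicates 1 to 3, so that replicate 4 lay far from the others for the spread of the group. Of 60 such comparisons (59 members with a count there, and the sum of all members) this was the 1 that passed the limit, and chance flags about 1 in 20 groups.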

How the results depend on the processing

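The number of members higher in OSCA-8 exosomes was 1 in the reported test. With the share of all tested genes called higher in brackets, 0.0796% in the reported test, it was 2 with total count scaling (0.0994%), 2 without a filter (0.390%), 2 with DESeq2 (0.0398%), 6 with limma voom (2.86%), 4 with the replicate block (0.670%) and 0 with all 20 libraries in one fit (0%). Without the OS-2 line (chosen after seeing the data) it was 2 with TMM (0.816%) and 2 with total count scaling (0.329%). Leaving out single exosome libraries gave 0 to 3 (0.00602% to 0.337%), where a line left with 1 library was assumed to vary like the others. With all 20 libraries in one fit, 12 of 58 members were higher at an unadjusted edgeR p under 0.05, beside 1060 of 16561 genes. The number lower was 0 in all these settings, but in simulated data the reported test recovered lowered genes less often than raised ones. The labels do not say what a replicate number marks. Differences of replicate 1 minus 2 correlated at -0.0136 to 0.0168 between 4 lines, so the numbers were not taken as pairs, but those of 2 minus 3 correlated at 0.38 between OS-1 and OSCA-78, the one pair of lines that shares both. With the block, members 46 and 32 had adjusted p of 1.13e-10 and 1.72e-07 by edgeR and log2 fold changes of 2.13 and 1.92. Member 23 had 1.72e-07 by edgeR and 1.65. Replicate number 4 occurs in OS-1 alone, so the block fits that library exactly and takes up part of the spread within OS-1. These p-values are therefore to be read with caution.

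The ratio of summed CPM, 1.71, was 1.65 to 1.77 when single libraries were left out. It was 1.90 without the 7 genes over 1%, 1.55 with 30 and 1.49 with 120 members, 1.13 as the median over members and 1.19 without the 3 members with the most exosome counts. Chosen after seeing the data, it was 1.08 without the 4 abundant members, 1.39 without OS-2, 0.869 without both, 1.22 without the 4 abundant members and the 7 genes, 1.06 without these and OS-2, and 1.58 relative to counts of the 8766 genes. The fitted log2 fold change of member 52, 0.02, turned to -0.014 with RLE, -0.0022 without a filter, -0.0079 with DESeq2 and -0.36 without OS-2 and with total counts, and ranged from -0.13 to 0.196 when single libraries were left out. Without OS-2 and with total counts, member 29 turned to -0.076 and member 35 to -0.22. The cause was not tested. Depth limits the low members, since 3 counts make 6.23 to 11.6 CPM in an exosome library.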
